A study of Mus musculus with 11 samples.

Results

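*Fosb* and *Fosl2* are genes of the Fos family, and each encodes a subunit of the AP-1 transcription factor. The values come from 11 RNA-seq libraries of a co-culture study of mouse skin cancer cells and lymphatic endothelial cells. They were chosen by name, with their change between sorted and control cells already known, so their change is given here as a description and was not tested. They are 2 of the 458 genes listed for either cell line. Both are among the 191 genes listed for LECs. *Fosl2* is also among the 290 listed for HaCa4, and *Fosb* in HaCa4 was not analysed here. HaCa4 is a mouse skin squamous carcinoma cell line that carries an oncogenic H-Ras. The LECs (imLEC) are dermal lymphatic endothelial cells from an immortomouse, kept dividing by a thermolabile SV40 large T antigen that is lost under the conditions used for functional assays. HaCa4 control (n = 2) and LEC control (n = 3) were single cultures. HaCa4-sorted (n = 3) and LEC-sorted (n = 3) were separated by FACS after 24 h of co-culture, with a dye (CFSE) in the cancer cells and an antibody to the endothelial protein CD31 on the LECs. More than 1 LEC clone was used in the study, and the labels do not say which clone a library holds. The sources do not say that the control cells passed through the sorter, so the effects of co-culture and of sorting cannot be told apart. In the paper, LEC medium held more serum than HaCa4 medium, and also VEGF and heparin. The paper does not name the co-culture medium, so an effect of medium cannot be told apart either. Nor do the labels say that replicates were separate cultures, and p-values then measure only the spread between these libraries.

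AP-1 is a dimer of a Fos protein with a Jun protein, held together by a leucine zipper, and it binds DNA through the basic region beside the zipper. Fos genes are switched on by growth factors, cytokines, and stress. *Fosb* is an immediate early gene with a brief transcript, and its full-length protein has a strong activation domain. *Fosl2* encodes Fra-2, which lacks that domain and is typically induced later and for longer. AP-1 drives keratinocyte differentiation genes, matrix proteases, and inflammatory cytokines, and in endothelial cells it takes part in the response to inflammatory signals.

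*Fosb* (Entrez Gene 14282) lies on the minus strand of chromosome 7, from 19302696 to 19310118 in the RefSeq annotation of GRCm38.p6. *Fosl2* (Entrez Gene 14284) lies on the plus strand of chromosome 5, from 32136472 to 32157840. In GENCODE M21, also on GRCm38, the main transcript of each gene has 4 exons, and exon 3 codes for the basic region. That exon is 108 bases long in both genes, at chr7:19306559-19306666 for *Fosb* and at chr5:32150421-32150528 for *Fosl2*. It is shown because it is the part that makes both genes members of one family, and because related genes can share reads. It is given 5′ to 3′ on the coding strand, with capitals for the 80 bases (74.1%) that are identical at the same position of the exon.
*Fosb* exon 3: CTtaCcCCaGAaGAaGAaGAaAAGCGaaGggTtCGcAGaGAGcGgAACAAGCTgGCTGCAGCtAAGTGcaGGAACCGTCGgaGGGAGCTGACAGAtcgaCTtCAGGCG
*Fosl2* exon 3: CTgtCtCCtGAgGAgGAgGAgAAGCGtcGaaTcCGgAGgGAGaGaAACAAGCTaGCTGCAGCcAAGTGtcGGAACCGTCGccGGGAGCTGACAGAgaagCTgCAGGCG
The longest stretch that the main transcripts share without a mismatch is 14 bases, so no read longer than that matches both of them exactly. *Fosb* also gives a shorter transcript, in which 140 bases within exon 4 (chr7:19305007-19305146) are spliced out, the form that encodes the truncated protein ΔFosB. The authors deposited a single TPM value (a transcript abundance scaled by transcript length and library total) per gene and library, so these forms could not be told apart.

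In LECs, the level of *Fosb* was low and was lower after co-culture. *Fosb* had 15.29, 6.49, and 3.40 TPM in LEC control replicates 1 to 3 and 1.05, 2.61, and 1.40 TPM in LEC-sorted replicates 1 to 3. Every sorted library lay below every control, with 3.40 TPM in the lowest control and 2.61 TPM in the highest sorted library. The mean was 8.39 ± 6.17 TPM (SD, n = 3) in the control and 1.69 ± 0.82 TPM (SD, n = 3) in LEC-sorted, which is 4.98-fold lower. On the log2(TPM + 1) scale, which understates changes of genes with few transcripts, the difference was -1.64 (standard error 0.49). On this scale and with all libraries, it was the most negative of the 64 listed LEC genes with a lower mean. That rank depends on the scale, since adding 5 in place of 1 before taking logs gave -0.91, where *Hmox1* had -1.18. Control replicate 1 set much of the size of the *Fosb* difference. Without that library the mean was 2.93-fold lower and the log2 difference -1.14. In bulk RNA, fewer cells that express a gene and less of its RNA per cell cannot be told apart.

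*Fosb* was also uneven among LECs that had not been co-cultured. Its highest LEC control was 4.50 times its lowest. The SD of log2(TPM + 1) over the 3 LEC controls was 0.95, against a median of 0.23 over the 191 listed genes, and ranked 4 among them. Among the LEC-sorted libraries, its SD was 0.42, against a median of 0.27, which ranked 52 of 191.

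*Fosl2*, in contrast, was abundant in LECs and higher after co-culture. *Fosl2* had 105.09, 64.95, and 93.10 TPM in LEC control replicates 1 to 3 and 150.71, 138.09, and 162.19 TPM in LEC-sorted replicates 1 to 3. The groups did not overlap, and the nearest libraries were 33.0 TPM apart. The mean was 87.7 ± 20.6 TPM (SD, n = 3) in the control and 150.3 ± 12.1 TPM (SD, n = 3) in LEC-sorted, 1.71-fold higher. Leaving out each library in turn gave between 1.52-fold and 1.90-fold. The log2 difference of 0.80 (standard error 0.20) ranked 105 among the 127 listed LEC genes with a higher mean. It was 0.17 (standard error 0.25) after scaling the libraries to a common median of the listed genes, a scaling that itself shifts the log2 differences of all listed LEC genes by a median of -0.61. With that scaling, *Fosb* had a log2 difference of -2.12.

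The libraries of almost all listed LEC genes separate in this way, because the authors listed genes by this comparison. Sorted and control libraries did not overlap in 96.9% of the 191 genes, 63.9% with higher and 33.0% with lower sorted libraries. Nothing is therefore read from the separation of *Fosb* and *Fosl2* itself.

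**Figure D1:**
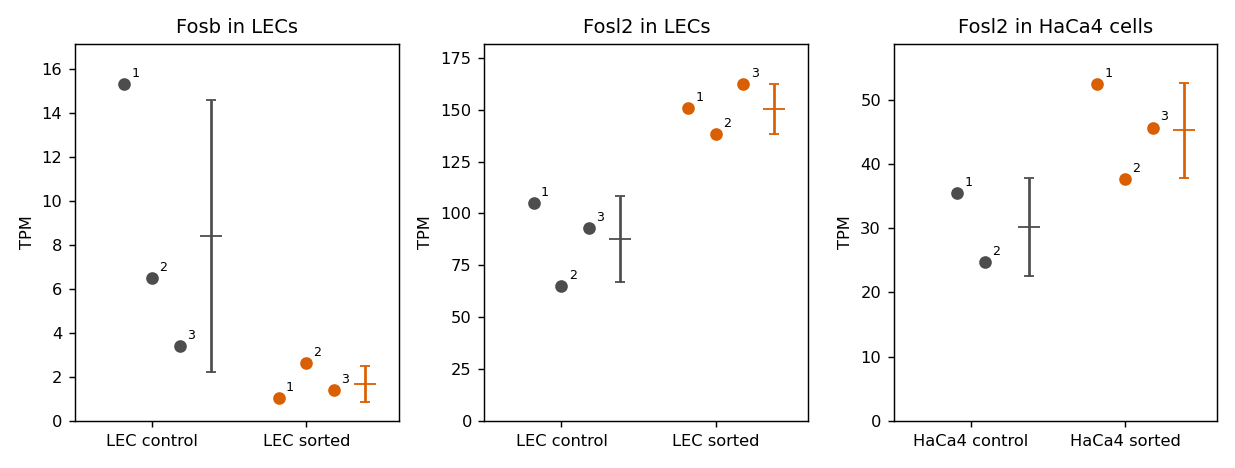
TPM of *Fosb* and *Fosl2* by library (points, numbered by replicate), with the mean and SD of each group (bars to the right), in LECs (left, middle) and HaCa4 cells (right). *Fosb* lies between 3.40 and 15.29 TPM in LEC control and between 1.05 and 2.61 TPM in LEC-sorted, while *Fosl2* is higher in the sorted libraries of both lines as deposited, a direction that turns in HaCa4 after scaling to a common median.

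Because TPM is corrected for transcript length, the levels of both genes can be set against each other within a library. *Fosl2* exceeded *Fosb* in all 6 LEC libraries. The ratio of *Fosl2* to *Fosb* TPM was 6.87, 10.0, and 27.4 in LEC control replicates 1 to 3. It was 144, 52.9, and 116 in LEC-sorted replicates 1 to 3. This ratio does not depend on how a library is scaled, but it is made of the values that chose both genes, and nothing is read from the separation of its groups. Of the summed TPM of both genes, *Fosb* made up 12.7%, 9.08%, and 3.52% in LEC control, against 0.692%, 1.86%, and 0.856% in LEC-sorted.

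In HaCa4 cells, *Fosl2* had a higher mean after co-culture, but the groups lay close together. *Fosl2* had 35.52 and 24.76 TPM in the HaCa4 controls and 52.40, 37.68, and 45.66 TPM in HaCa4-sorted replicates 1 to 3. The higher control and the lowest sorted library differed by 2.16 TPM, less than the SD of either group. The mean of the HaCa4 controls was 30.1 ± 7.61 TPM (SD, n = 2), and that of HaCa4-sorted was 45.2 ± 7.37 TPM (SD, n = 3), 1.50-fold higher. The log2 difference was 0.58 (standard error 0.21), and it ranked 169 among the 192 listed HaCa4 genes with a higher mean. It was 0.33 without control replicate 2 and 0.83 without control replicate 1. The direction turned to -0.26 (standard error 0.34) after scaling to a common median, which shifts all listed HaCa4 genes by a median of -0.72. The libraries of 96.6% of the 290 listed HaCa4 genes did not overlap between sorted and control cells (63.1% higher and 33.4% lower after sorting), so *Fosl2* did not stand out in this respect.

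**Figure D2:**
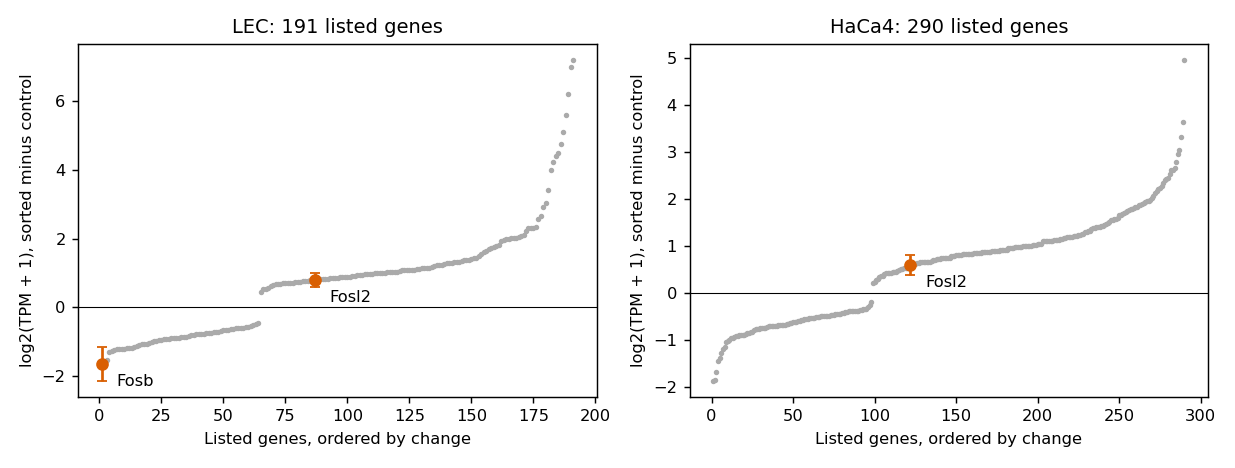
Difference in log2(TPM + 1), sorted minus control, of each listed gene in order of size, for LECs (left, 191 genes) and HaCa4 cells (right, 290 genes). *Fosb* (-1.64) is at the lower end of the LEC genes, and *Fosl2* (0.80 in LECs, 0.58 in HaCa4) is among the smaller positive differences, with bars for its standard error and a sign that turns in HaCa4 after scaling to a common median.

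The HaCa4-sorted libraries also held transcripts of endothelial genes. Of 30 endothelial markers, 17 were among the listed HaCa4 genes. The controls had a summed level of 4.02 and 3.07 TPM, against 19.4, 288, and 126 TPM in HaCa4-sorted replicates 1 to 3. *Cdh5* (VE-cadherin) and *Emcn* (endomucin) were listed at 0 in both controls. The order of the sorted libraries was the reverse for *Fosl2*, which was highest in replicate 1, where the endothelial markers were lowest. *Kdr*, which encodes VEGF receptor 2, was the only endothelial marker listed for both lines. It had 0.15, 1.87, and 1.16 TPM in HaCa4-sorted replicates 1 to 3, or 0.149%, 1.85%, and 1.15% of its mean of 101 TPM in LEC-sorted. The same percentages of the LEC-sorted mean of *Fosl2* are 0.224, 2.79, and 1.73 TPM. The *Fosl2* values of these libraries were 22.3, 7.54, and 15.5 TPM above the mean of the controls. These percentages rest on a single marker, and a contribution of LEC RNA to *Fosl2* was not tested.

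**Figure D3:**
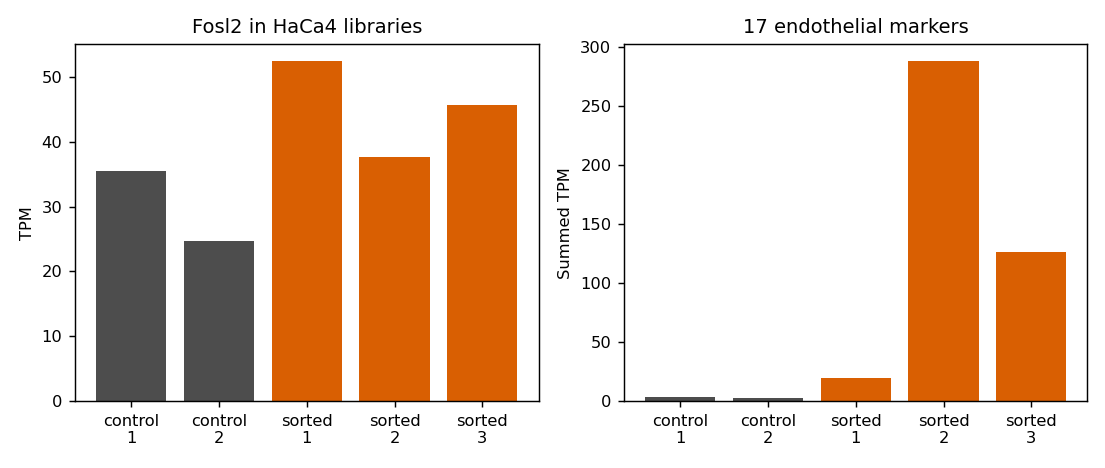
Bars give TPM of *Fosl2* (left) and summed TPM of the 17 listed endothelial markers (right) in each HaCa4 library, with controls in grey and HaCa4-sorted in orange. *Fosl2* is highest in sorted replicate 1 (52.40 TPM), where the marker sum is 19.4 TPM, and lowest among the sorted libraries in replicate 2 (37.68 TPM), where the sum is 288 TPM.

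The reverse comparison in LECs rests on a single gene. Of 34 keratinocyte markers, the listed LEC genes hold *Krt8*, which encodes a keratin of simple epithelia. It was listed at 0 in all 3 LEC controls and at 0.19, 2.19, and 0.89 TPM in LEC-sorted replicates 1 to 3, at most 0.99% of its HaCa4-sorted mean of 221 TPM. That percentage of the HaCa4-sorted mean of *Fosl2* is 0.448 TPM, while the LEC-sorted libraries were between 50.4 and 74.5 TPM above the mean of the LEC controls. A contribution of HaCa4 RNA was not tested. The LECs themselves carried the endothelial markers *Kdr* and *Pdpn* (podoplanin), the only 2 of the 30 that were listed, at a summed level between 269 and 524 TPM. The 2 moved in opposite directions. Means in LEC control and LEC-sorted were 152 and 101 TPM for *Kdr*, and 144 and 352 TPM for *Pdpn*. Of the 34 keratinocyte markers, 4 were listed for HaCa4, among them *Krt8*, at a summed level between 233 and 410 TPM.

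In the TPM values as deposited, the level of *Fosl2* differed between the cell lines, a contrast that its choice did not use. It was tested by limma over the 23 genes listed for both lines, with all 11 libraries in a single fit. In single culture, *Fosl2* was 1.50 higher on the log2(TPM + 1) scale in LECs than in HaCa4 cells (standard error 0.27, adjusted p = 0.000156 from limma). After co-culture it was 1.72 higher (standard error 0.24), with an adjusted p of 1.94e-05 from limma. The paper gives LECs and HaCa4 cells different media, so line and medium cannot be told apart in single culture. The lowest LEC library in either state, at 64.95 TPM, was above the highest HaCa4 library, at 52.40 TPM. The order of the group means was thus LEC-sorted, LEC control, HaCa4-sorted, and HaCa4 control, and the last pair was the closest. Most of the 23 genes differ between the lines, and 91.3% of them were called in single culture (56.5% higher and 34.8% lower in LECs) and 78.3% after co-culture (52.2% higher and 26.1% lower). After scaling the libraries to a common median of these 23 genes, the differences were 0.12 in single culture and -0.28 after co-culture, and neither passed. Because most of these genes differ between the lines, their median is not a neutral reference. This scaling therefore cannot decide whether *Fosl2* differs between the lines. The change of *Fosl2* within each line was 0.80 in LECs and 0.58 in HaCa4 on this scale, and these changes differed by 0.22 (standard error 0.37), given without a test because they chose the gene. Of the 23 genes, 19 (82.6%) had changes that differed between the lines at an adjusted p no higher than 0.05 by limma.

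Lists of genes related to AP-1, or to the signals that induce Fos genes, were followed with limma over all listed genes of a line. Calls needed an absolute log2 difference of 0.5 or more and an adjusted p no higher than 0.05. At these thresholds, 96.3% of the listed LEC genes were called, 63.9% higher and 32.5% lower. Of 43 genes for AP-1 subunits and other basic leucine zipper factors, LECs had 2 listed beside *Fosb* and *Fosl2*. *Cebpb* and *Cebpd* encode C/EBPβ and C/EBPδ, zipper factors of the acute-phase response, and both rose in LEC-sorted cells. The LEC controls had 52.07, 68.09, and 54.35 TPM of *Cebpb*, against 187.96, 123.19, and 120.05 TPM in LEC-sorted. Its log2 difference was 1.27 (standard error 0.22, adjusted p = 0.00321 from limma), and the call was lost after scaling to a common median (0.65). For *Cebpd*, the controls had 32.94, 51.10, and 48.33 TPM and LEC-sorted 189.20, 154.88, and 163.72 TPM. On the log2 scale it differed by 1.94 (standard error 0.20), with an adjusted p of 0.000543 from limma. Of the 4 listed zipper genes in LECs, *Fosb* was thus the only one with lower sorted libraries. *Fos*, *Jun*, and the other AP-1 subunits were not analysed here.

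A further list held genes that respond early to growth factor, stress, or cytokine signals, as Fos genes do, or that feed back on such signals. Of 56 such genes, 5 were listed for LECs, and these 5 rose, where 63.9% of all listed LEC genes were called higher. They had a median log2 difference of 1.30 against 0.87 over all listed LEC genes. They were *Nfkbiz* (IκBζ, a nuclear NF-κB cofactor), *Ier3* (an immediate early gene), *Nfkbia* (the NF-κB inhibitor IκBα), *Socs3* (a brake on cytokine receptors), and *Zfp36l1* (an mRNA decay factor). *Nfkbiz* rose most, with means of 17.8 ± 2.28 and 78.4 ± 17.1 TPM in LEC control and LEC-sorted (SD, n = 3 each). The means of *Ier3* were 129.7 ± 23.8 and 442 ± 112 TPM (SD, n = 3 each). *Fosb*, which belongs to the immediate early class as well, went the other way. After scaling to a common median, 3 of the 5 calls held, and *Socs3* and *Zfp36l1* lost theirs.

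Genes with AP-1 control known in some cell type were also followed, and whether AP-1 acted on them here was not tested. Of 46 such genes, 12 were listed for LECs, of which 11 rose and 1 fell, beside 63.9% higher and 32.5% lower among all listed LEC genes. Their median log2 difference was 1.62, against 0.87 over all listed LEC genes. *Cxcl1* and *Cxcl2*, which encode neutrophil-attracting chemokines, had log2 differences of 6.21 and 4.49. *Csf2*, which encodes the growth factor GM-CSF, had 5.10, and the stromelysin gene *Mmp3* had 2.33. The LEC control means of *Cxcl2* and *Csf2* were only 0.25 and 0.57 TPM, so their differences depend on the value added before taking logs. With 5 in place of 1, they were 2.65 and 3.37. *Hmox1* (heme oxygenase 1) was the exception, and fell, with means of 1015 ± 296 and 455 ± 156 TPM in LEC control and LEC-sorted (SD, n = 3 each). On the log2 scale it differed by -1.18 (standard error 0.32), with an adjusted p of 0.011 from limma. *Hif1a*, *Lif*, and *Vcam1* kept their direction and lost their calls after scaling to a common median. With that scaling, 110 of the 191 listed LEC genes were called, 46 higher and 64 lower.

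The same lists were followed in HaCa4 cells. There, 30.0% of the listed genes were called, 15.9% higher and 14.1% lower. Of the zipper genes, *Nfe2l2* (NRF2, a regulator of antioxidant genes) was listed beside *Fosl2*. Its controls had 289.72 and 304.58 TPM, HaCa4-sorted had 209.15, 228.13, and 199.53 TPM, and its log2 difference of -0.49 (standard error 0.10) fell short of the size threshold. Of the early genes, 5 were listed, with a median log2 difference of -0.34 against 0.74 over all listed HaCa4 genes. *Klf10* (a TGF-β-inducible repressor) rose, with a log2 difference of 0.52, whereas *Areg* (the EGF receptor ligand amphiregulin) and *Ier2* fell, with -0.57 and -0.51. *Klf10* turned to -0.32 after scaling to a common median.

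Of the genes with known AP-1 control, 12 were listed for HaCa4, of which 2 rose and 5 fell, with a median log2 difference of -0.81. Among those that rose was *Il11* (interleukin-11), which differed by 1.74 on the log2 scale (standard error 0.49), with an adjusted p of 0.0418 from limma. The controls had 8.49 and 5.46 TPM of *Il11*, against 41.66, 12.84, and 29.18 TPM in HaCa4-sorted. The largest falls among the genes that passed both thresholds were those of *Krt6b* (a keratin of stressed epidermis), *Tslp* (an epithelial cytokine), *Mmp13* (collagenase 3), and *Spp1* (osteopontin), with -1.87, -1.86, -1.70, and -0.91. For *Mmp13*, the controls had 17.78 and 6.30 TPM and HaCa4-sorted 3.70, 2.42, and 1.94 TPM. The call for *Il11* was lost after scaling to a common median, at 0.95. All HaCa4 calls rest on few libraries, since 0 of the 290 genes were called without control replicate 2 or without sorted replicate 3, although 70 and 126 had an unadjusted p under 0.05, and limma without the trend also called 0 (161 at an unadjusted p under 0.05). Without control replicate 1, 6 genes were called, and without sorted replicate 1, 194 were.

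**Figure D4:**
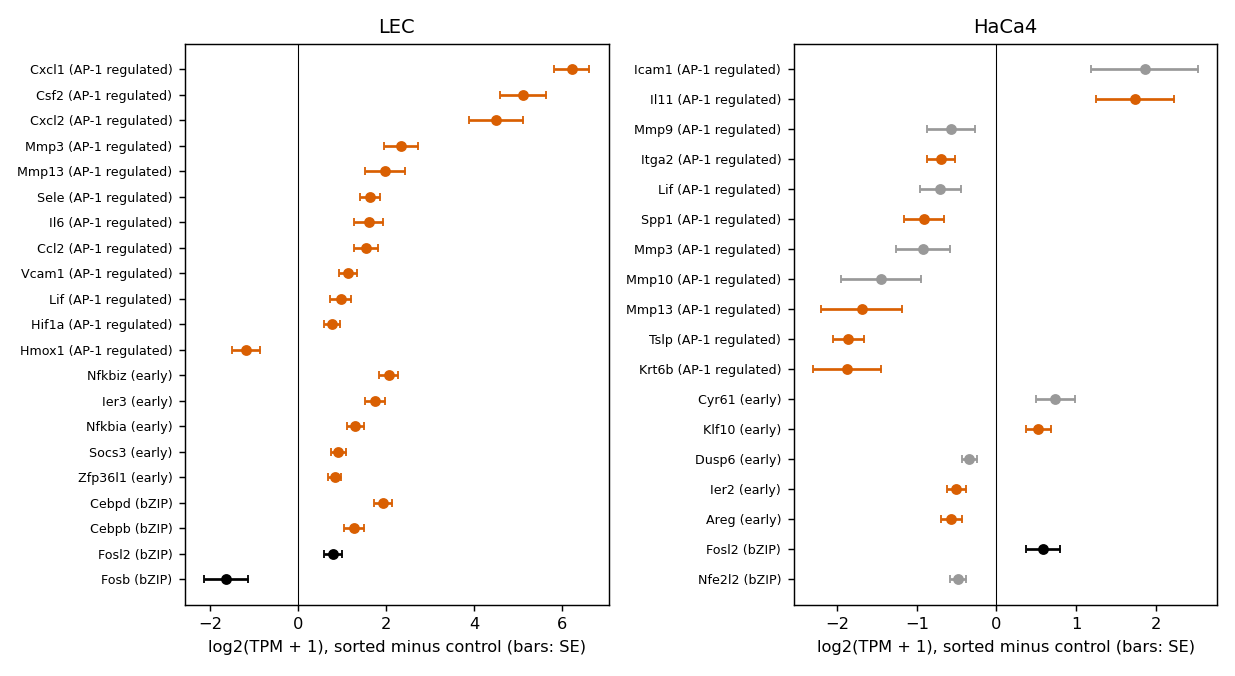
Difference in log2(TPM + 1), sorted minus control, with its standard error, for the listed zipper (bZIP), early, and AP-1 regulated genes in LECs (left) and HaCa4 cells (right, without 1 AP-1 regulated gene that is not reported). Orange points passed both thresholds, grey points did not, and *Fosb* and *Fosl2* are black. In LECs, *Fosb* (-1.64) and *Hmox1* (-1.18) are the points left of 0. In HaCa4, 1 early and 1 AP-1 regulated gene of those plotted passed to the right of 0 and 2 and 5 to its left, and the signs of *Fosl2*, *Klf10*, and *Cyr61* in HaCa4 turn after scaling to a common median.

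The listed genes whose profiles were most like those of *Fosb* and *Fosl2* were found by the root mean square difference of log2(TPM + 1) over the libraries of a line, each gene centred on its own mean. This measure uses the same libraries that chose both genes, so it is a description. For *Fosb* in LECs, over 6 libraries, the nearest were *Ceacam1* (0.44), *Fhdc1* (0.53), *Mustn1* (0.54), *Id2* (0.54), and *Kcnf1* (0.55), against a median of 1.42 over the other 190 genes. For *Fosl2* in LECs, they were *Stip1* (0.12), *Csf1* (0.15), *Acsl3* (0.15), *Sinhcaf* (0.15), and *Riox2* (0.17), against a median of 0.69. For *Fosl2* in HaCa4, over 5 libraries, they were *Aif1l* (0.073), *Wisp1* (0.079), *Zfp703* (0.084), *Klf10* (0.12), and *Cyr61* (0.12), against a median of 0.59 over the other 289 genes.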

How the data were processed

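RNA from 11 libraries of HaCa4 cells and LECs was sequenced on the BGISEQ platform. The authors filtered the reads with SOAPnuke and aligned them to GRCm38.p6 with HISAT (HISAT2 2.0.4 in the submitters' processing notes), and their differential expression step used DESeq2. The TPM values the authors deposited are per gene and library, for genes they had selected. The tool that gave the TPM is not given in the sources used here. The listed genes hold 1.84% to 3.85% of a library's TPM. TPM keeps no record of read numbers, so the depth is unknown, no counting error can be given, and precision rests on the spread between replicates. No pair of replicates shared more than 5 identical values above 0.

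TPM values were used as deposited. Tests used limma 3.58.1 in R 4.3.3, on log2(TPM + 1) with the intensity trend, the libraries of 1 cell line (or all 11 for the 23 shared genes), no block for the replicate number, and two-sided p-values adjusted (Benjamini-Hochberg) across all listed genes of that fit. The thresholds were those of the study's methods, which applied them to DESeq2 results, so the calls here are not the study's calls. The study also reported fewer deregulated HaCa4 genes than are listed here. Because the genes were listed for a change, adjusted p-values describe this selection. The step was tested on simulated data. The genes and lists were chosen with earlier results of these data known. Named are *Fosb*, *Fosl2*, all listed zipper genes, the 4 largest called rises and falls of the other lists in each line, and the 5 nearest profiles. A gene that this rule names in HaCa4 is not reported here. Beside the cell type markers, *Zfp36l1*, *Hif1a*, *Lif*, *Vcam1*, *Cyr61*, and *Mmp13* in LECs were named beyond this rule after their values were seen. Exon sequences are from GENCODE M21. Alternatives were pseudocounts of 0.1 and 5, a mean TPM of at least 1, limma without the trend, scaling to a common median, a replicate block, a log2 threshold of 1, a ratio of means, and leaving out each library. Figures were drawn with Python 3.11.15 and matplotlib 3.10.9.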

Additional observations from a re-analysis of the deposited data

Results flagged for a closer look

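A test of the difference between the lines, added after the data were seen, called 19 of the 23 genes listed for both (82.6%), so a call is near the background. The authors listed these genes by the sorted and control values that this test uses. Its adjusted p-values therefore describe that selection, and nothing is read from the calls. The 19 include all 3 genes of the AP-1 regulated list that were listed for both lines. Each had a mean that was higher in LEC-sorted than in LEC control and lower in HaCa4-sorted than in HaCa4 control. For *Mmp3*, the log2 change in LECs minus that in HaCa4 was 3.26 (standard error 0.55, adjusted p = 0.000859 from limma), with 7.23, 14.18, and 11.06 TPM in LEC control, 55.84, 91.28, and 35.84 TPM in LEC-sorted, 17.90 and 14.95 TPM in HaCa4 control, and 8.58, 11.53, and 5.40 TPM in HaCa4-sorted. For *Mmp13*, it was 3.67 (standard error 0.67, adjusted p = 0.000931 from limma). *Mmp13* had only 0.10, 0.47, and 0.22 TPM in LEC control, against 2.55, 9.26, and 2.28 TPM in LEC-sorted. Its log2 change in LECs was 1.97, and 0.81 with 5 added in place of 1. For *Lif*, which encodes a cytokine of the interleukin-6 family, the difference between the lines was 1.67 (standard error 0.39, adjusted p = 0.00263 from limma). In HaCa4 alone, *Mmp3* (-0.92) and *Lif* (-0.71) did not pass. Under the alternatives run, all 3 differences kept their direction and their call, with adjusted p between 0.000188 and 0.033.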

How the results depend on the processing

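Scaling to a common median gave *Fosl2* 0.17 in LECs and -0.26 in HaCa4, *Klf10* -0.32 and *Cyr61* -0.13 in HaCa4, and *Fosl2* between the lines 0.12 in single culture (adjusted p = 0.724 from limma) and -0.28 after co-culture (adjusted p = 0.368 from limma). It called 110 genes, with 3 early genes, in LECs, and 145 genes (50 higher, 95 lower) in HaCa4. A log2 threshold of 1 left 95 genes and 3 early genes in LECs and 39 genes and 0 early genes in HaCa4. In HaCa4, a pseudocount of 0.1 called 177 genes, with 11 AP-1 regulated genes, and a pseudocount of 5 called 33, with 1 early and 3 regulated. Without the trend, limma called 0 genes in HaCa4, 0 early and 0 regulated (161, 3, and 11 at an unadjusted p under 0.05). Leaving out each library gave between 165 and 177 genes in LECs and between 0 and 194 in HaCa4, with 0 to 2 early and 0 to 11 regulated genes there. In these leave-one-out fits, *Fosb* stayed between -2.08 and -1.14, and *Fosl2* between 0.60 and 0.94 in LECs and between 0.33 and 0.83 in HaCa4. Outside that range, *Fosb* was -0.91 with a pseudocount of 5 and -2.12 after scaling to a common median. Counts of called zipper genes are left out, because they would include *Fosb* in LECs and *Fosl2* in both lines, which were chosen by these values. The cause of these moves was not tested. Depth is unknown, which limits low genes such as *Fosb* most.

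Whether the replicate numbers pair the samples cannot be decided from so few libraries of genes listed for a change. Same-numbered LEC libraries deviated together with r = 0.23, 0.074, and -0.019 over genes. HaCa4 has only 2 such pairs, with r = 0.23 and 0.28. With a replicate block, 182 LEC and 115 HaCa4 genes were called, and *Fosl2* in HaCa4 was 0.57. The second HaCa4 control bears the number 3 in its file, and with that number the block called 22 genes, 1 early and 4 regulated, and *Fosl2* was 0.70. Not every library correlated best with its own number.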
